A study of Mus musculus with 24 samples.

Results

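The ribosomal RNA processing factors described here are 47 mouse genes, chosen by name from the annotation of the array. They are the genes whose symbols start with Utp, Nop, Rrp or Nol, or with Polr1, in the manner of those families, together with Fbl, Dkc1, Pes1, Bop1, Imp3 and Imp4. Each of the 47 had 1 probe set, out of 19572 probe sets that carry a single gene symbol, and 46 averaged at least 5 on the log2 scale. The exception was Utp25, at 4.75, which is called dim. The rule itself used names only and no measured value, although it was set with earlier results of these data known.

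Ribosomal RNA is made in the nucleolus, where RNA polymerase I transcribes a long precursor that carries the RNAs of both ribosomal subunits. Small nucleolar ribonucleoproteins modify bases and sugars of this precursor, and a large assembly on its leading end, the small subunit processome, folds and cuts it, while a further set of factors matures the large subunit. In muscle, this production of ribosomes is known as one of the processes that set the capacity for protein synthesis when fibres grow. By role, 5 of the 47 genes encode subunits of RNA polymerase I, 7 belong to the UTP-A, UTP-B and UTP-C subcomplexes of the processome, 14 to other parts of the processome, 5 to the core and chaperones of the small nucleolar ribonucleoproteins (snoRNPs) and 12 to large subunit maturation. The remaining 4, Nol3, Nol4, Nol4l and Nol7, bear a nucleolar name and were grouped here as of other or no settled role, a grouping that was not checked gene by gene.

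Gene expression was measured in whole tibialis anterior, a fast muscle of the lower leg, from 24 mice. Per the study they were on a C57BL/6J background, about 4 months old and fed normal chow. The sample titles name no treatment, and the study does not state which procedures these 24 mice had been through. The mice fell into 4 groups of 6: WT females, Vps39+/- females, WT males and Vps39+/- males. Vps39+/- mice carried 1 germ-line copy of Vps39 in which exon 2 was interrupted by a neomycin-EGFP cassette, in every tissue and from conception, and the study used heterozygotes because embryos with no intact copy die. The WT mice were littermates with both copies intact. Vps39 encodes a subunit of the complex that tethers vesicles to lysosomes, and the comparison asked how muscle gene expression differs when 1 copy is disrupted.

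Values are on the log2 scale of robust multi-array analysis (RMA), so that a difference of 1 is a doubling, and array medians lay between 5.06 and 5.19. The fast fibre genes Acta1, Ckm and Myh4 were between 12.67 and 13.82 in every array. Liver genes were also present in some muscles. The mean of 28 liver genes was 11.19 and 9.91 in WT females 2 and 6 and 9.61 and 8.91 in Vps39+/- males 3 and 2, against 4.76 to 7.84 in the other arrays, and these 4 are called the liver-rich arrays. Vps39 itself read 7.5 in WT and 7.84 in Vps39+/- mice (difference 0.34, 95% confidence interval -0.02 to 0.70). Its probe set measures the transcript of the interrupted copy too if it lies outside the interrupted part, so it does not check the labels.

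No rRNA processing factor passed an adjusted p of 0.05 for genotype over all mice (limma, Benjamini-Hochberg over all 19572 probe sets), and neither did any other gene on the array (0%). At an unadjusted p under 0.05, 2 members were higher and 2 were lower in Vps39+/- mice, where 4.72% of all genes tested were higher and 2.62% were lower. The 2 lower members were Utp18 and Nop58, and the 2 higher members were Rrp15 and Fbl. The median difference of the 47 genes was 0.03, beside 0.01 over all genes, with 28 genes above 0 (59.6%, beside 53.2% of all genes) and 19 below. Because whole muscle was measured, fewer cells of a type and less RNA per cell cannot be told apart in any of these values.

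Utp18 had the largest difference of the 47 genes. It encodes a WD-repeat protein of the UTP-B subcomplex, and its yeast counterpart brings the RNA exosome, the machine that degrades the cut spacers, to the early precursor. In WT females Utp18 read 5.99 at the lowest, 6.24 at the median and 6.4 at the highest, and in Vps39+/- females 5.43, 5.87 and 6.10. In WT males the values were 5.90, 6.18 and 6.38, and in Vps39+/- males 5.61, 5.87 and 6.03. All 12 Vps39+/- mice lay below the WT mean and 6 of them lay below every WT mouse, although the ranges overlapped in both sexes. The difference over all mice was -0.38 (SE 0.08, 95% confidence interval -0.53 to -0.22), a level 0.770 times that of WT.

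By its p this gene ranked 4 of all 19572 tested, and it did not pass after adjustment (limma, adjusted p = 0.228). Over 38 alternative settings the difference ran from -0.42 to -0.34 and the adjusted p from 0.123 to 0.378. Within sexes, Utp18 was 0.42 lower in Vps39+/- females (SE 0.11) and 0.33 lower in Vps39+/- males (SE 0.11). A permutation of the genotype labels gave p = 0.0108 in females and p = 0.00866 in males (both exact and two-sided), and p = 0.00014 over all mice from 1e+05 draws. Utp18 was singled out with its difference already known from these arrays, so these p-values describe the separation of the groups and are no independent evidence of it. The difference was -0.42 without the 4 liver-rich arrays and -0.38 in a fit that took the mean of the liver genes as a covariate. It was also -0.38 with a number in the sample titles, which may mark a batch and whose meaning is not stated, as a block (adjusted p = 0.123).

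**Figure D1:**
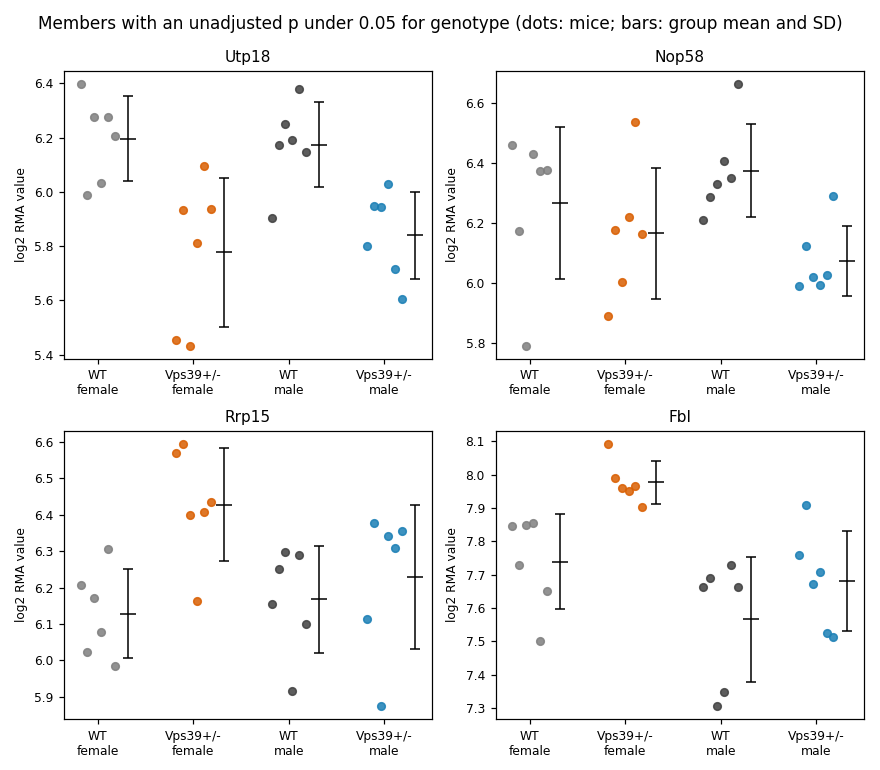
Log2 RMA values of Utp18, Nop58, Rrp15 and Fbl in each mouse (dots) of the 4 groups on the horizontal axis, with the group mean and SD (bars). The median of Utp18 is lower in Vps39+/- mice of both sexes (5.87 in each), and the 6 Vps39+/- females lie above all WT females for Fbl (7.90 to 8.09 against 7.5 to 7.85), while all other pairs of WT and Vps39+/- groups overlap.

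The promoter of Utp18 is printed here. Those of Nop58 and Rrp15 follow, the other members at an unadjusted p under 0.05 for genotype that had an entry. Nop2 and Utp4 are added because they share with Utp18 both the E-box and the ETS motif given below. Sequences are from RefSeq (build GRCm38.p6), each with 250 bases before the gene's start and 50 after it, 5′ to 3′ on the gene's strand. Capitals mark 3 motifs found on either strand: the E-box CACGTG, the ETS motif CCGGAAG and the CCAAT box.
Utp18 (chr11:93885717-93886016, minus strand): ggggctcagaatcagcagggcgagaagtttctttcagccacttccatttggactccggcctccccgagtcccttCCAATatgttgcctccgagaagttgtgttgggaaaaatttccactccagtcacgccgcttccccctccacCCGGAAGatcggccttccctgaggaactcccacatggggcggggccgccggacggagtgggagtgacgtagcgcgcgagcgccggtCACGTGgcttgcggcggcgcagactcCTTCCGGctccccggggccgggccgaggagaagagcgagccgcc
Nop58 (chr1:59684756-59685055, plus strand): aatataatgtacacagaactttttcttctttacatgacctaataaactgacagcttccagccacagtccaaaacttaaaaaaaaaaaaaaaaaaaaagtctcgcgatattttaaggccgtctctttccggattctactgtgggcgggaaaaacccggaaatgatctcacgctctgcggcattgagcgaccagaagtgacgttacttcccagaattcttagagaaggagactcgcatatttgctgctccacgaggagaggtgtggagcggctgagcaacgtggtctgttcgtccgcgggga
Rrp15 (chr1:186749309-186749608, minus strand): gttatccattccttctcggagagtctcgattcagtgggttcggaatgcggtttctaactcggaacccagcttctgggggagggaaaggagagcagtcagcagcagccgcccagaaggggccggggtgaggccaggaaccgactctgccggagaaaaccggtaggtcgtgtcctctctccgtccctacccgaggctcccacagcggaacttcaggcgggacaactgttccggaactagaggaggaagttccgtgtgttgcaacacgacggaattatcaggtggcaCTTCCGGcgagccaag
Nop2 (chr6:125131633-125131932, plus strand): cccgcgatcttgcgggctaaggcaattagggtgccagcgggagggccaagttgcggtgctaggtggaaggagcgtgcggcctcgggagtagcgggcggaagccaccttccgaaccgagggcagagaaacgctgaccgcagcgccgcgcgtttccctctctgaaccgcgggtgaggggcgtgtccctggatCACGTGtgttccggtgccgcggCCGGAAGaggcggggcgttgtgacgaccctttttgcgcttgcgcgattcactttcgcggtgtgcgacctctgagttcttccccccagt
Utp4 (chr8:106893390-106893689, plus strand): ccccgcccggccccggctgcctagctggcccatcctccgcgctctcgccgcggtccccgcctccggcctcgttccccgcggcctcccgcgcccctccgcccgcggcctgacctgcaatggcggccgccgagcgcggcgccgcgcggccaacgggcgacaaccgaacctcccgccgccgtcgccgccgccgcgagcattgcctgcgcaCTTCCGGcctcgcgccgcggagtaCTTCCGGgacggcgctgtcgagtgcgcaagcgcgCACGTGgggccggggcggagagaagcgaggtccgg
In the Utp18 promoter, with positions counted from the gene's start, the E-box began at -20, the ETS motifs at -106 and 6, and the CCAAT box at -176. Nop2 and Utp4 were the other members with both an E-box and an ETS motif. The promoter of Nop58 held none of the 3, and that of Rrp15 held an ETS motif at 34.

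Promoter entries matched 37 of the 47 genes and 15691 genes of the array. The E-box CACGTG, the letters to which Myc and related factors are known to bind, was found in 9 of the 37 (24.3%), beside 8.18% of all array promoters of the same length. The ETS motif CCGGAAG was found in 12 (32.4%, beside 12.2%) and the GC box GGGCGG in 25 (67.6%, beside 48.2%). The CCAAT box was found in 13 (35.1%, beside 38.8%), TATAAA in 5 (13.5%, beside 13.1%) and AAGATGG, the core of the YY1 motif, in 1 (2.7%, beside 6.5%). Both strands were searched for each and matches of different motifs could overlap. The 9 promoters with an E-box were those of Imp4, Utp25, Nop2, Utp4, Utp20, Pes1, Utp18, Nol11 and Rrp7a, and of these 9 genes only Utp18 was among the 4 members at an unadjusted p under 0.05 for genotype.

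Many of these genes start back to back with a neighbour. A start on the opposite strand lay within 1000 bases upstream in 17 of the 37 (45.9%), beside 12.9% of array genes. Utp18 and Mbtd1, a gene for a chromatin protein with malignant brain tumour domains, start 84 bases apart. Mbtd1 was looked at as this neighbour, not for its values. It read 6.30, 6.36 and 6.56 (lowest, median, highest) in WT females and 5.87, 6.00 and 6.60 in Vps39+/- females, and 6.16, 6.23 and 6.92 in WT males and 5.40, 6.08 and 6.54 in Vps39+/- males. Its groups overlapped in both sexes, with medians that were lower in Vps39+/- mice.

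The difference in Mbtd1 was -0.35 over all mice (SE 0.11, limma adjusted p = 0.508), -0.30 in females and -0.40 in males, and it was -0.42 over all mice without the 4 liver-rich arrays. Within the 4 groups, the Pearson correlation of Utp18 with Mbtd1 was 0.26 over 24 mice, read on the same arrays. Of the 13 pairs with both genes on the array, 5 had the same sign for genotype, and 1 of the 13 neighbours, Mbtd1, was at an unadjusted p under 0.05, where 7.34% of all genes tested were. The other pairs included Polr1a with Ptcd3, 291 bases apart (0.00 for Polr1a and 0.06 for Ptcd3), and Utp4 with Chtf8, 47 bases apart (-0.09 and -0.01).

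Nop58 is a core protein of the box C/D snoRNPs, which guide the methylation of ribosomal RNA. It read 5.79, 6.37 and 6.46 (lowest, median, highest) in WT females, 5.89, 6.17 and 6.54 in Vps39+/- females, 6.21, 6.34 and 6.66 in WT males and 5.99, 6.02 and 6.29 in Vps39+/- males. The ranges overlapped, and 11 of 12 Vps39+/- mice lay below the WT mean. The difference was -0.20 over all mice (SE 0.08, limma adjusted p = 0.599).

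Fbl, fibrillarin, is the methyltransferase of the same particles and differed in the other direction. It read 7.5, 7.79 and 7.85 in WT females and 7.90, 7.96 and 8.09 in Vps39+/- females, which did not overlap. In males it read 7.31, 7.66 and 7.73 in WT and 7.51, 7.69 and 7.91 in Vps39+/-, which did. The share of all genes tested without overlap in females was not counted, so the rarity of this separation is not known. The difference was 0.18 over all mice (SE 0.08, limma adjusted p = 0.636). Within groups, the mean correlation of Fbl with the other members was -0.08 over 24 mice.

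Rrp15, a factor of large subunit precursors, read 5.98, 6.12 and 6.31 in WT females and 6.16, 6.42 and 6.59 in Vps39+/- females. In males it read 5.92, 6.20 and 6.30 in WT and 5.88, 6.32 and 6.38 in Vps39+/-. Of the 12 Vps39+/- mice, 9 lay above every WT mouse and 1 below every WT mouse. The difference was 0.18 over all mice (SE 0.07, limma adjusted p = 0.598).

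By role, the genotype differences over all mice were small and ran both ways. The 5 polymerase I subunits lay between -0.02 (Polr1d, which polymerase III shares) and 0.04 (Polr1c, likewise shared), with the largest subunit Polr1a at 0.00 and the second largest, Polr1b, at 0.01. Among the 7 genes of the UTP subcomplexes the 6 others than Utp18 lay between -0.09 (Utp4, of UTP-A) and 0.08 (Utp15, of UTP-A), with Utp6 of UTP-B at 0.04 and Nol6 and Rrp7a of UTP-C at 0.03 and 0.07. The 14 other processome genes ran from -0.10 (Utp11) to 0.14 (Rrp36), and Imp3 and Imp4, which help the processome's small nucleolar RNA pair with the precursor, were at -0.03 and 0.02.

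The 5 snoRNP genes ran both ways. The pseudouridine synthase Dkc1 and its partner Nop10 were at -0.16 and -0.11, on the side of Nop58, while Nolc1, a chaperone of these particles, was at 0.10, on the side of Fbl. The 12 large subunit genes ran from -0.07 (Nol8) to 0.18 (Rrp15), with the rRNA methyltransferase Nop2 at 0.10 and Pes1 and Bop1, which work in 1 complex, at 0.03 and 0.00. The 4 genes grouped as of other or no settled role ran from -0.09 (Nol7) to 0.10 (Nol3, a muscle-rich repressor of cell death). Without the 4 liver-rich arrays Nol3 was at 0.01, Nol7 at -0.05 and Rrp36 at 0.07. Of all 47 intervals only those of Utp18, Nop58, Rrp15 and Fbl left out 0, and the 47 intervals together spanned -0.53 to 0.33.

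**Figure D2:**
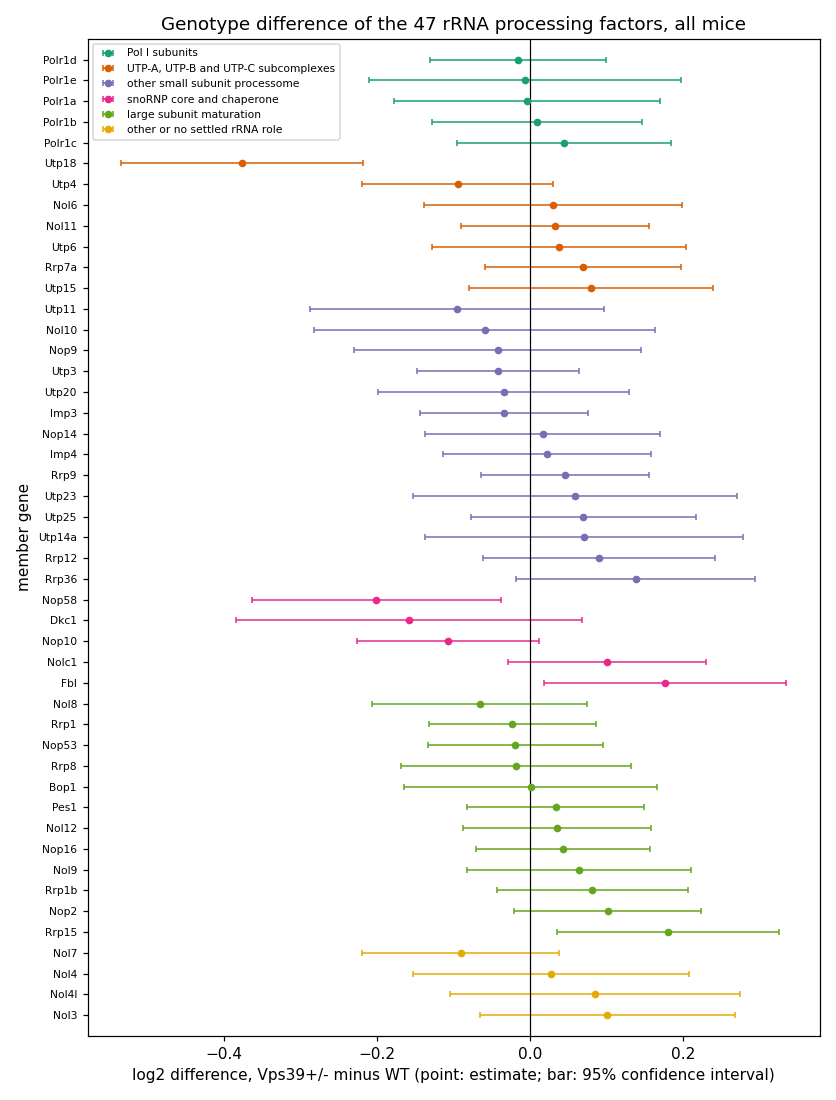
Genotype difference of each of the 47 genes over all 24 mice (horizontal axis, log2 difference, Vps39+/- minus WT; point, estimate; bar, 95% confidence interval), ordered by role on the vertical axis. Utp18, at -0.38, lies apart from the other genes, which lie between -0.20 and 0.18.

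In females, no member passed an adjusted p of 0.05, as for every gene on the array (0%). Before adjustment, 4 members were higher in Vps39+/- females and 1 was lower at p under 0.05, beside 5.36% and 2.96% of all genes. The 4 higher were Rrp15 (0.30, SE 0.09), Utp23 (0.30, SE 0.13), Fbl (0.24, SE 0.09) and Nop2 (0.20, SE 0.08), and the lower was Utp18. The median over members was 0.05, beside 0.02 over all genes, and 32 of 47 were above 0 (68.1%, beside 56.5% of all genes).

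Transcripts of other cell types also differed between the genotypes in females. All 28 liver genes were lower in Vps39+/- females (median -1.25), as were 6 of 7 adipocyte genes (-0.34) and 6 of 7 macrophage genes (-0.24). All 7 endothelial genes (0.17) and 5 of 6 lymphocyte genes (0.17) were higher, but 5 of the 6 lymphocyte genes were dim. Higher as well were 3 of 5 satellite cell genes (0.04) and 8 of 10 fast fibre genes (0.01). Fibroblast genes ran both ways, with 2 of 5 higher and a median of -0.14. Without the 4 liver-rich arrays, 2 of them WT females, 24 of 47 members were above 0 with a median of 0.00, beside 10047 of all 19572 genes. Rrp15 was then at 0.24, Fbl at 0.21, Utp23 at 0.19 and Nop2 at 0.12. With the mean of the liver genes as a covariate, 29 of 47 members were above 0 with a median of 0.02, beside 10284 of all 19572 genes. In that fit Rrp15 was at 0.26, Fbl at 0.25, Utp23 at 0.21 and Nop2 at 0.18. The part of the adipocyte, endothelial, lymphocyte or macrophage transcripts in these differences was not tested.

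In males, again, no member and no other gene passed an adjusted p of 0.05 (0%). No member was higher at an unadjusted p under 0.05 and 4 were lower in Vps39+/- males, beside 3.19% and 3.82% of all genes. Besides Utp18 they were 3 of the 5 snoRNP genes, while the other 2, Fbl and Nolc1, were at 0.11 and 0.13. Of the 12 snoRNP genes outside the naming rule, 1 was lower at that level (8.33%). Dkc1 read 5.10, 5.25 and 6.16 in WT males and 4.76, 5.18 and 5.28 in Vps39+/- males, overlapping, with a difference of -0.35 (SE 0.15). Nop58 differed by -0.30 (SE 0.11) and Nop10, which was among the brightest probe sets of the 47, by -0.17 (SE 0.08), with all 6 Vps39+/- males below the WT mean for each of the 3.

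The Dkc1 difference rested in part on WT male 4, at 6.16, and was -0.21 without that mouse. Nop10 lies 8.05 Mb from Vps39 on chromosome 2, as Polr1b does at 8.75 Mb and Nol4l at 33.1 Mb. The median over members was -0.01 in males, beside 0.00 over all genes. Liver genes ran the opposite way from females here (28 of 28 higher in Vps39+/- males, median 1.16). Without the 4 liver-rich arrays, 2 of them Vps39+/- males, Dkc1 was at -0.35 and Nop58 at -0.30.

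**Figure D3:**
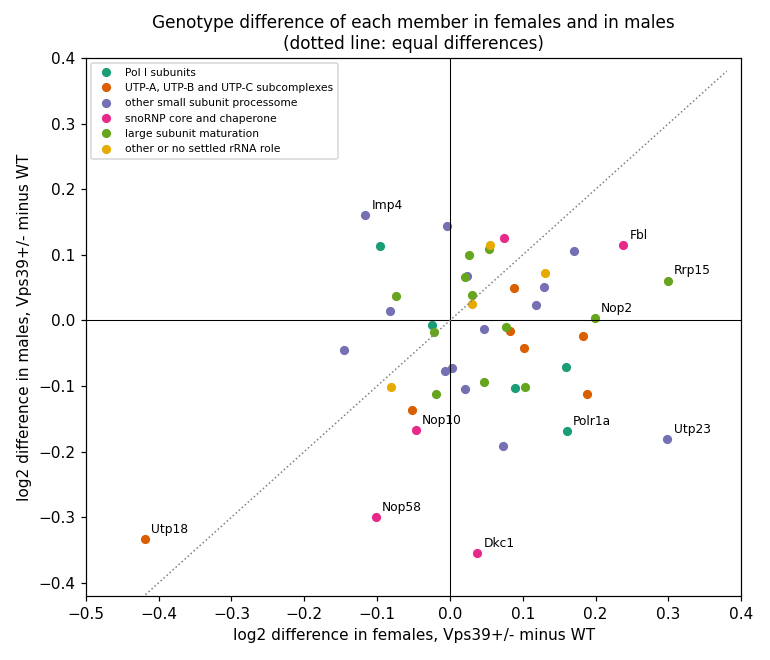
Log2 difference between Vps39+/- and WT in females (horizontal axis) and in males (vertical axis) for each of the 47 genes, coloured by role; the dotted line marks equal differences. Utp18 lies near the line at -0.42 and -0.33, while Dkc1, Utp23 and Polr1a lie off it to the lower right and Imp4 to the upper left.

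Set side by side, the differences in females and males had the same sign in 26 of the 47 genes (55.3%), 10 lower in both sexes and 16 higher in both, beside 50.3% of all genes. Of the rest, 16 (34%) were higher in females and lower in males, beside 28.3% of all genes. The reverse held for 5, beside 4176 of all 19572 genes. The difference between the sexes was tested as an interaction, the genotype difference in males minus that in females. No member passed an adjusted p of 0.05, nor did any gene (0%). At an unadjusted p under 0.05, 1 member was above 0 and 2 were below, beside 3.16% and 4.63% of all genes.

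The 2 below 0 were Utp23 and Polr1a. Utp23, a processome protein known in yeast to release a small nucleolar RNA from the precursor, read 5.78, 6.10 and 6.66 in WT females and 6.28, 6.47 and 6.61 in Vps39+/- females, but 6.15, 6.38 and 6.69 in WT males and 5.98, 6.21 and 6.59 in Vps39+/- males. All 4 ranges overlapped, and the interaction was -0.48 (SE 0.19, limma adjusted p = 0.632). Polr1a, the largest subunit of polymerase I, read 7.08, 7.32 and 7.62 in WT females and 7.21, 7.55 and 7.65 in Vps39+/- females, and 7.13, 7.37 and 7.54 in WT males and 6.78, 7.26 and 7.28 in Vps39+/- males. Its interaction was -0.33 (SE 0.14, limma adjusted p = 0.634) and ran from -0.44 to -0.22 over the alternative settings. The value of 6.78 was that of Vps39+/- male 2, a liver-rich array, with the others of its group at 7.23 to 7.28. Vps39+/- female 1, at 7.21, likewise lay below the others of its group (7.53 to 7.65).

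The member above 0 was Imp4, at 0.28 (SE 0.12, limma adjusted p = 0.634). It read 6.58, 6.79 and 7.02 in WT females and 6.52, 6.63 and 6.92 in Vps39+/- females, and 6.44, 6.72 and 6.84 in WT males and 6.73, 6.88 and 6.99 in Vps39+/- males. The liver transcripts were also above 0 in this comparison (28 of 28, median 2.51). Without the 4 liver-rich arrays Utp23 was at -0.33, Polr1a at -0.22 and Imp4 at 0.24, and the median over all members, -0.08 with every array beside -0.02 over all genes, was 0.01.

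**Figure D4:**
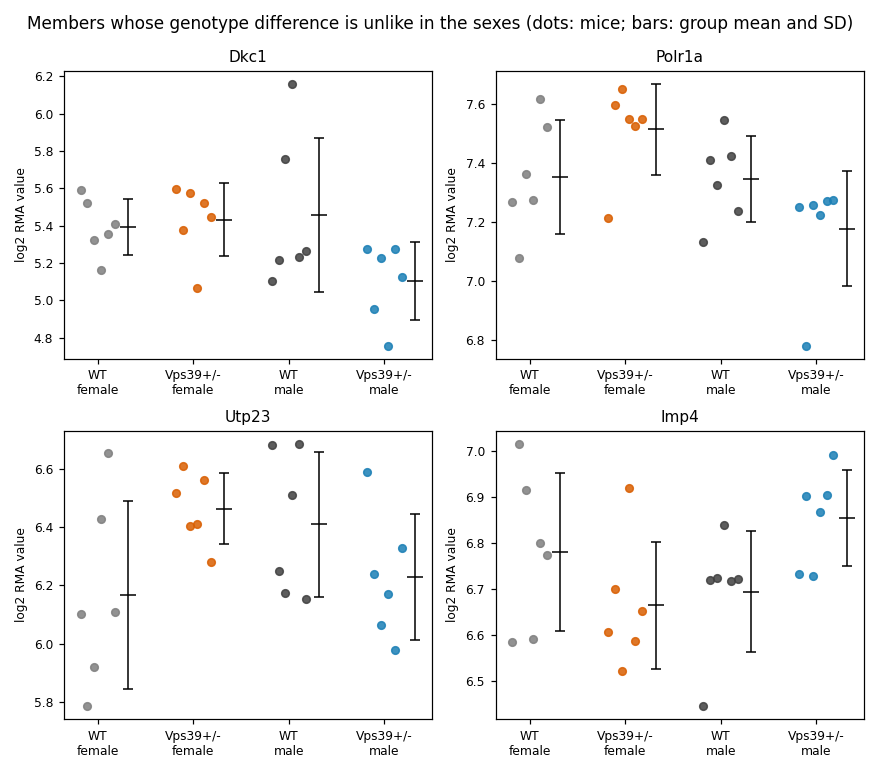
Log2 RMA values of Dkc1, Polr1a, Utp23 and Imp4 in each mouse (dots) of the 4 groups on the horizontal axis, with the group mean and SD (bars). Utp23 and Polr1a have higher medians in Vps39+/- than in WT females and lower ones in males, Imp4 the reverse, and 1 WT male at 6.16 lies apart for Dkc1.

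The sexes themselves differed in 1 member. Over both genotypes, 661 genes (3.38%) passed an adjusted p of 0.05 for sex, and Fbl was the only member among them. Fbl read 7.5, 7.88 and 8.09 in females and 7.31, 7.67 and 7.91 in males, overlapping, with 11 of 12 males below the female mean. It was 0.23 lower in males (-0.23, SE 0.06, limma adjusted p = 0.0367). This call was close to the threshold and was lost in 14 of the 24 fits that left out 1 mouse: WT females 1, 3 and 4, WT males 3 and 4, Vps39+/- females 1, 2, 3, 4 and 5, or Vps39+/- males 3, 4, 5 and 6 (adjusted p from 0.0506 to 0.0669). It was also lost in the fit with the mean of the liver genes as a covariate (-0.22, adjusted p = 0.0661).

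At an unadjusted p under 0.05, 2 members were higher and 2 were lower in males, beside 8.53% and 7.12% of all genes. The higher were Pes1 (0.15, SE 0.05, limma adjusted p = 0.0851) and Nol3 (0.16, SE 0.08, adjusted p = 0.294), and the lower were Fbl and Polr1a (-0.17, SE 0.07, adjusted p = 0.229). Pes1 read 8.31, 8.40 and 8.64 in females and 8.44, 8.60 and 8.69 in males, with 11 of 12 males above the female mean. It passed when dim probe sets were left out of the test (adjusted p = 0.0399).

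Within WT mice 1.32% of genes passed an adjusted p of 0.05 for sex and within Vps39+/- mice 0.766%, and none of the 47 was among them in either. In WT males 2 members were higher and none was lower at an unadjusted p under 0.05, beside 8.21% and 6.04% of all genes, namely Pes1 (0.20, SE 0.07) and Rrp1 (0.17, SE 0.07), both of large subunit maturation. All 28 liver genes (median -2.16) and all 7 macrophage genes (-0.28) were also lower in WT males. Pes1 and Rrp1 had correlations of -0.38 and -0.53 with the mean of the liver genes within groups over 24 mice, and the count was 1 without the 4 liver-rich arrays. In Vps39+/- mice 1 was higher in males and 6 were lower, beside 5.08% and 6.03%. The higher was Imp4 (0.19, SE 0.09), and the lower were Polr1a (-0.34, SE 0.10), Dkc1 (-0.33, SE 0.15), Fbl (-0.30, SE 0.09), Utp6 (-0.29, SE 0.10), Rrp15 (-0.20, SE 0.09) and Nop2 (-0.18, SE 0.08). Whether the sexes differed more in Vps39+/- than in WT mice is the interaction given above, for which no gene passed an adjusted p of 0.05.

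Taken over all 47 genes, the level of the factors was lowest in 1 array. In WT female 2 their mean lay 0.16 below their own means over all mice and 6 of the 47 were above them. The other arrays lay between -0.08, in WT female 6, and 0.10, in WT male 4, where 35 of 47 were above their means. WT female 2 and WT female 6 were also the 2 arrays with most liver transcript, and the 2 liver-rich Vps39+/- males were at -0.06 and -0.04, with Vps39+/- male 6, low in liver transcript (5.48), at -0.06 as well.

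With the group means removed, the slope on the mean of the liver genes was below 0 for 39 of the 47 genes, beside 12784 of all 19572, with a median of -0.02 per unit. None passed an adjusted p of 0.05 for this slope, beside 3.18% of all genes. At an unadjusted p under 0.05, 3 of the 47 were below 0, beside 1354 of all 19572 genes. They were Utp23 (-0.07 per unit), Rrp12 (-0.05), which acts in the export of small subunit precursors, and Bop1 (-0.05). Utp14a (-0.06) and Polr1e (-0.05), of like slope, did not reach that level. Utp18, by contrast, had a correlation of -0.10 with the mean of the liver genes within groups over 24 mice.

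**Figure D5:**
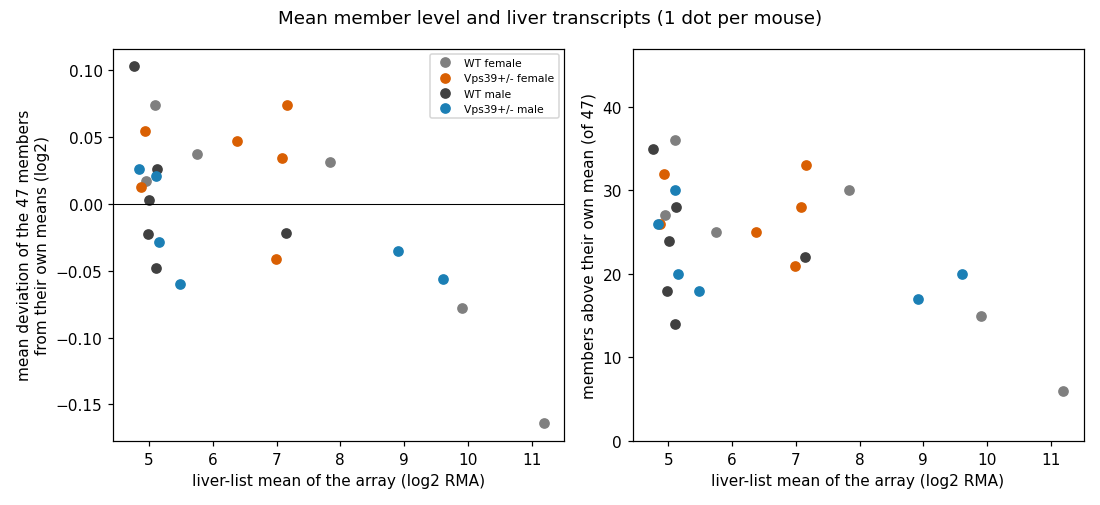
Each dot is 1 mouse, placed by the mean log2 RMA value of 28 liver genes (horizontal axes). The left vertical axis gives the mean deviation of the 47 factors from their own means (log2) and the right one the number of factors above their own mean; WT female 2 lies lowest, at -0.16 and 6 of 47, with the most liver transcript (11.19).

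The factors moved together only loosely from mouse to mouse. Over 1081 pairs, with group means removed, the median Pearson correlation was 0.10 and the mean was 0.09, beside a mean of 0.02 over all pairs of the 11780 genes that averaged at least 5, all read on the same 24 arrays. The closest pairs were Nol3 with Polr1d (0.75) and the processome genes Utp11 and Utp14a (0.73). The most opposed was Fbl with Polr1a (-0.60). Utp18 was closest to Rrp8, known in yeast as a methyltransferase of large subunit rRNA, at 0.43.

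Other genes of the pathway, outside the naming rule, showed the same small size of difference. Over all mice none of 9 further polymerase I genes, 33 processome genes, 12 snoRNP genes, 44 large subunit genes and 13 exosome genes passed an adjusted p of 0.05. In that order, 2, 11, 4, 20 and 5 of them were above 0, with medians of -0.04, -0.01, -0.04, -0.01 and -0.02. Each list thus lay more below 0 than above, where 53.2% of all genes and 59.6% of the 47 members were above 0. At an unadjusted p under 0.05, Ngdn of the processome (-0.14) and the RNA helicase Ddx21 (-0.15) were lower and Gar1, the partner of Dkc1 and Nop10 in the pseudouridine-forming snoRNPs (0.13), and Surf6 of large subunit maturation (0.17) were higher. No gene of the exosome or polymerase I list reached that level. The share that did was 3.03% of the processome list, 8.33% of the snoRNP list and 4.55% of the large subunit list, beside 7.34% of all genes tested.

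In males these lists lay mostly below 0: 8 of 9 polymerase I genes (median -0.05), 27 of 33 processome genes (-0.09), 8 of 12 snoRNP genes (-0.07), 28 of 44 large subunit genes (-0.05) and 11 of 13 exosome genes (-0.10), beside 9891 of all 19572 genes (median 0.00). The exosome cofactor Mphosph6 had the largest difference in the exosome list, -0.47 (SE 0.13, limma adjusted p = 0.539), beside 0.23 in females and an interaction of -0.70 (SE 0.18, adjusted p = 0.583). Exosc9, a subunit of the exosome ring, was at -0.19 in males. In females 5 of 9 polymerase I genes (median 0.01), 24 of 33 processome genes (0.04), 7 of 12 snoRNP genes (0.06), 25 of 44 large subunit genes (0.02) and 9 of 13 exosome genes (0.07) were above 0, beside 11049 of all 19572 genes (56.5%). Without the 4 liver-rich arrays, the counts below 0 in males were 6 of 9, 24 of 33, 6 of 12, 26 of 44 and 8 of 13, and the counts above 0 in females were 4 of 9, 19 of 33, 6 of 12, 20 of 44 and 7 of 13.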

How the data were processed

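RNA of whole tibialis anterior muscle from 24 mice was hybridised to Clariom S mouse arrays, 1 array per mouse. The deposited values are log2 expression, which the authors made with robust multi-array analysis. The submitters' processing notes name Affymetrix Expression Console 1.4.1.46. The genome build was not given in the sources used here. Of 28846 probe sets 6640 were controls, 2634 had no gene symbol in the platform annotation and 19572 had 1 symbol and were tested, and no per-sample column was left unused.

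Genotype over all mice was fitted on 12 against 12, and all other comparisons on the 4 group means, with limma 3.58.1 in R 4.3.3 (lmFit and eBayes, two-sided, Benjamini-Hochberg over all 19572 probe sets). The study's methods name an unpaired t-test, which was run as an alternative. The fits were also run on simulated arrays with known changes and independent noise for each probe set. That run held no sex effect and no liver transcripts shared between genes, so it does not check the fits against either. Arrays have no read depth, so the number of mice limits the precision. Mice were numbered in accession order, which pairs none of them. The labels carry a running number, in blocks by group, and a title number whose meaning they do not give, and the latter was tried as a block.

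The members, roles, lists and markers were chosen with earlier results of these data known. Genes named were Utp18, members past an adjusted p of 0.05, the 10 members in each direction with the smallest p for genotype over all mice, the 4 in each direction for genotype in each sex, the interaction and sex, the first of each role, and up to 3 per list outside the rule. Genes named outside this rule, such as Mbtd1 and those of sex within a genotype, were chosen after their values were seen or, for Mbtd1, by position. Lists are given as counts and medians, with no set test. Alternatives covered scaling, filters, weights, covariates, blocks, arrays with liver transcripts and leaving out each mouse. Repeating the lists outside the rule and Mbtd1 without those arrays was chosen after seeing the data. Nop56 and the promoters of 10 members were not analysed here.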

Additional observations from a re-analysis of the deposited data

Results flagged for a closer look

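In 5 of 124 sets of 6 values (31 named factors in 4 groups), 1 mouse lay far from the other 5 of its group, by the gap to the nearest value over the whole range. Chance alone gives such a gap in about 1 in 20 sets, or 6.2 of 124, so the number is no sign of a pattern. Polr1a, the catalytic subunit of RNA polymerase I, was at 6.78 in Vps39+/- male 2, where the other males of the group were at 7.23 to 7.28, and at 7.21 in Vps39+/- female 1, where the others were at 7.53 to 7.65. Vps39+/- female 1 was also low for Nop14 of the processome, at 6.94 against 7.2 to 7.33. Imp4 was at 6.44 in WT male 1, against 6.72 to 6.84, and Rrp7a of UTP-C was at 7.92 in WT female 5, against 7.65 to 7.69.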

How the results depend on the processing

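The differences of members chosen by the naming rule were recomputed under the alternatives, and those of other genes (except Mbtd1, in the 2 settings for liver transcripts), of sex within a genotype and of other members named were not. All of those recomputed kept their sign, with 1 exception: the interaction of the dim Utp25 turned from 0.15 to -0.15 when title number was a fixed block. No member passed an adjusted p of 0.05 for genotype or the interaction under any alternative, and adjusted calls changed only for sex. There, 2 members (Fbl and Pes1) passed when dim probe sets, averaging under 5, were left out, and 0 passed with the mean of the liver genes as a covariate, beside 1 as reported. By the methods' t-test Pes1 passed (adjusted p = 0.0298) and Fbl did not (0.0601). Leaving out 1 mouse at a time gave 0 to 1. Counts at an unadjusted p under 0.05 moved by more than 1.5 times in 3 settings: the interaction gave 1 with the mean of the liver genes as a covariate (3 as reported), sex in WT gave 1 without the 4 liver-rich arrays (2), and sex in Vps39+/- gave 4 when title number was a fixed block (7). The causes were not tested. Leaving out 1 mouse gave 1 to 5 for the interaction (1 without WT female 2 or Vps39+/- female 3, 5 without WT male 1, Vps39+/- female 4 or Vps39+/- male 1), 2 to 4 for males (2 without WT male 3 or Vps39+/- male 4), 3 to 8 for sex in Vps39+/- (3 without Vps39+/- female 3, 4 without female 5 or 6), 1 to 4 for sex in WT (1 without WT female 2 or 6 or WT male 1, 4 without WT female 4 or 5) and 2 to 6 for sex over both genotypes (2 without Vps39+/- male 2). The number of mice, 6 per group, limits the intervals. In females, title number and genotype coincide in part, as only title number 1 was shared by WT and Vps39+/- mice.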
